A study of Rattus norvegicus with 6 samples.

Results

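The renin-angiotensin and endothelin systems were examined through 9 genes picked by name, all of which were present among the 32623 genes of the deposited table. They were Agt, Ace, Agtr1a, Agtr1b and Agtr2 on the angiotensin side and Edn1, Ece1, Ednra and Ednrb on the endothelin side. Total RNA of myocardial tissue was sequenced in 6 samples from wild-type male rats. For 3 samples (ischemia) a ligature closed the left anterior descending coronary artery for 30 min, while the other 3 (sham) came from a sham operation with the same time label. The strain, the age and the part of the heart taken were not given in the sources used here, and the labels do not say in words that the samples of a group came from separate animals, so p-values measure the spread between these samples.

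Angiotensinogen, the product of Agt, is cut to angiotensin I, and angiotensin-converting enzyme (Ace) trims it to the vasoconstrictor angiotensin II, which acts mainly through the type 1 receptor. Endothelin-1, the product of Edn1, is released from its precursor by endothelin-converting enzyme (Ece1) and acts on receptors A (Ednra) and B (Ednrb). In the heart, Ace, Ece1 and Edn1 are known as products of endothelial cells among others. Receptor A is known for constriction in vascular smooth muscle, and receptor B on endothelium for dilation and for clearing the peptide.

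Ace transcripts were higher in ischemia, by 2.41-fold, and Ace was the only one of the 7 members with enough reads for the test that passed it. The other converting enzyme, Ece1, was 1.61-fold higher and missed the threshold, with an adjusted p-value of 0.0543 in edgeR. Ednra was lower in every ischemia sample than in any sham sample without passing. Agt, Agtr1a, Edn1 and Ednrb overlapped between the groups, and the type 1b and type 2 angiotensin receptors had no reads or very few. With the edgeR quasi-likelihood test, 1 of 7 members was higher and 0 were lower at an adjusted p under 0.05, where 5.18% of all 13964 tested genes were higher and 1.53% lower. At an unadjusted p under 0.05 there were 3 members, namely Ace, Ece1 and Ednra, against 32.4% of all tested genes, and DESeq2 called 2 higher (14.9% of all genes it tested) and 2 lower (12.6%). The FPKM values (fragments per kilobase of transcript, scaled to library size) of the groups did not overlap for 2 higher members and 1 lower member of 7. Over all tested genes 23.6% did not overlap in the higher and 15% in the lower direction (38.6% in either), so this count does not set the members apart. Their median log2 fold change was 0.24, against -0.0015 over all tested genes.

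**Figure D1:**
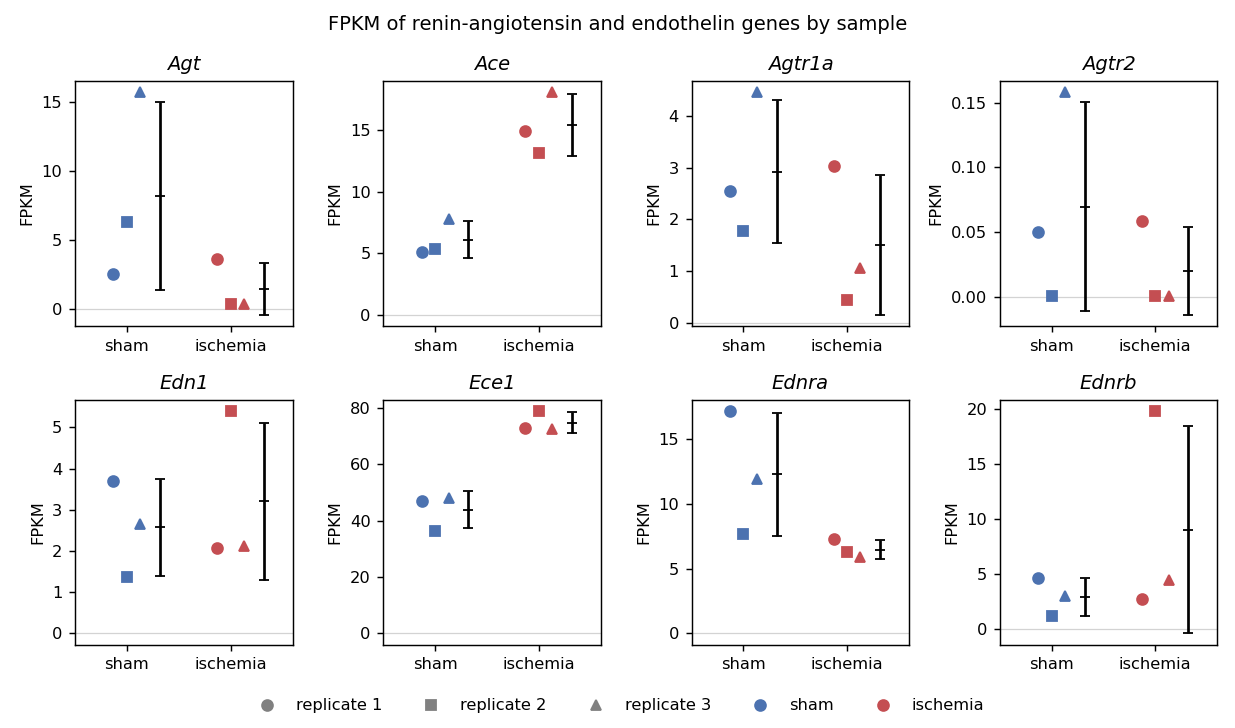
FPKM (y axis, linear) of 8 of the 9 genes in each sham (blue) and ischemia (red) sample, with the symbol shape giving the replicate; black bars give the mean ± SD of 3 samples. Ace and Ece1 lay higher and Ednra lower in every ischemia sample, Ednrb and Edn1 were highest in ischemia replicate 2, and Agtr1b, at 0 counts in every sample, is not drawn.

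The libraries held between 68529126 and 79591989 counts. All 8 ventricular or general cardiomyocyte markers were present, with a summed FPKM of 25145 to 42131 in sham and 11913 to 23056 in ischemia. None of them passed in edgeR, their median log2 fold change was -0.69, and 3 were lower without overlap between the groups. The part of these cells in the members' values was not tested. Libraries differed beyond the groups. The summed FPKM of 5 atrial markers was 48344 and 39345 in sham replicates 1 and 3 and 215.5 in sham replicate 2, against 1279 to 9610 in ischemia. Counts on 2 genes that the table places on chromosome Y summed to 4 for sham replicate 1 and ran from 1762 to 4310 elsewhere, although the rats were described as male. Airway and alveolar markers summed to 414.4 FPKM in ischemia replicate 1 and to between 3.12 and 20.3 elsewhere. Neutrophil and monocyte markers summed to 18.3 to 26.1 FPKM in sham and to 535.0 to 3852 in ischemia, and ischemia replicate 2 was the highest.

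Ranked by FPKM, which allows for gene length, Ece1 was the most abundant member in both groups, with a sham mean of 43.9 ± 6.61 and an ischemia mean of 74.9 ± 3.69 (SD, n = 3 each), beyond the range of any other member. In sham, Ednra (12.3 FPKM on average), Agt (8.19) and Ace (6.10) followed, and neighbours in this order overlapped. Ednrb (2.95), Agtr1a (2.92) and Edn1 (2.57) formed a lower group in which neighbours overlapped as well. In ischemia, Ace (15.4 FPKM) came next after Ece1, followed by Ednrb (9.05) and Ednra (6.47), where neighbours overlapped. Edn1 (3.20), Agtr1a (1.51) and Agt (1.42) lay below, again with overlapping neighbours.

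Ace (ENSRNOG00000062101), the gene of angiotensin-converting enzyme, spans bases 94170766 to 94187822 of chromosome 10 (plus strand), in the coordinates of the table. In FPKM, sham replicates 1 to 3 stood at 5.14, 5.34 and 7.82, and ischemia replicates 1 to 3 had 15.0, 13.2 and 18.1. The lowest ischemia sample was thus well above the highest sham sample. These values rest on 1474, 1630 and 2136 counts in sham, against 4647, 3714 and 4836 after ischemia. In edgeR the log2 fold change came to 1.27 ± 0.24 (SE), at an adjusted p of 0.0418, and the exact permutation test on FPKM gave 0.1, the smallest that 3 samples against 3 can give. Across 16 alternative settings it lay from 1.09 to 1.41 on the log2 scale. The call was lost in edgeR without sham replicate 1 (adjusted p 0.161), 2 (0.0959) or 3 (0.135) and without ischemia replicate 3 (0.134), fits in which 0 of 13964 genes passed. It was also lost without both atrial-rich sham samples (1.24, edgeR adjusted p 0.394).

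Since Ace is an endothelial gene, its level was also set against 8 endothelial markers with reads in every library. None of the 9 tested endothelial markers passed in edgeR, and their median log2 fold change was 0.080. Their summed FPKM nevertheless ran from 265.3 to 291.5 in sham and from 335.4 to 376.8 in ischemia, and Cldn5 was at 0 in 4 libraries. Relative to the mean log2 FPKM of the 8 markers of the same library, Ace was at -2.59, -2.60 and -2.01 in sham and at -1.24, -1.59 and -1.02 in ischemia. This is a difference of 1.12 on the log2 scale, and the groups did not overlap (exact permutation p 0.1). Airway and alveolar markers summed to 414.4, 3.12 and 3.69 FPKM in ischemia replicates 1 to 3, and neutrophil and monocyte markers to 535.0, 3852 and 551.8. The part of those cells in the Ace values was not tested.

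The 3 tested genes whose values across the 6 samples were closest to those of Ace, by the root mean square difference of centred log2 CPM (counts scaled to library size), were Nol12 (0.139), Psmd8 (0.144) and Ifrd2 (0.157). The median over all tested genes was 0.822. This closeness is a description over 6 samples.

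Ece1 (ENSRNOG00000014241), which encodes the protease that frees endothelin-1, spans bases 156215417 to 156318671 of chromosome 5 (plus strand). Sham replicates 1 to 3 had an FPKM of 47.2, 36.3 and 48.3, and ischemia replicates 1 to 3 had 72.9, 79.1 and 72.6. The 3 ischemia samples were close together and all above sham. The edgeR fit gave 0.69 ± 0.16 (log2 fold change, SE) with 0.0543 as its adjusted p, and 0.1 was the exact permutation p. Relative to the endothelial markers the difference was 0.55 on the log2 scale, also without overlap (exact permutation p 0.1). With the test limited to genes averaging 5 FPKM or more, of which 8.89% were higher, the edgeR adjusted p was 0.0494.

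Among the promoter sequences at hand, 8 of the 9 members had an entry (RefSeq, build GRCr8, which may differ from that of the table). Those of Ace and Ece1 are shown because both genes were higher in every ischemia sample, and that of Edn1 because it belongs to the ligand that Ece1 releases and whose level overlapped. Each is the stretch of 250 bases before the annotated start, 5′ to 3′ on the gene's strand, and capitals mark the motif matches described after them.
Ace, chr10:91409879-91410128, plus strand: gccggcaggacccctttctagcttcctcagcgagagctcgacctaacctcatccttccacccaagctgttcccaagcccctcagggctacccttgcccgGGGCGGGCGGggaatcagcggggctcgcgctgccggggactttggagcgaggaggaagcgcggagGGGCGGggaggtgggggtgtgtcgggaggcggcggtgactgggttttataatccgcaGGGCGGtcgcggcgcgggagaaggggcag
Ece1, chr5:155360781-155361030, plus strand: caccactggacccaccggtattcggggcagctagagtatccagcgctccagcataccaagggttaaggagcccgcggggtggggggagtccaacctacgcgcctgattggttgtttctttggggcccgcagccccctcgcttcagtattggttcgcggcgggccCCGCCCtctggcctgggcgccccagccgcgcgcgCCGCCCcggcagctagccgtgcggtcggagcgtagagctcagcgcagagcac
Edn1, chr17:22666688-22666937, minus strand: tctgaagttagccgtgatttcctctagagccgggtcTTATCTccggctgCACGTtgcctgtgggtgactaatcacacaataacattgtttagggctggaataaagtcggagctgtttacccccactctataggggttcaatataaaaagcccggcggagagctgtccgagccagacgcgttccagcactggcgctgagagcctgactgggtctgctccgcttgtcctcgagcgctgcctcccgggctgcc
On both strands, 5 motifs were searched: the core of the hypoxia response element (ACGTG), the AP-1 site (TGANTCA), the GC box bound by Sp factors (GGGCGG), the E-box CACGTG, which contains the hypoxia core, and a GATA site (AGATAA). The Ace stretch held 4 GC boxes, of which 2 overlapped, and the Ece1 stretch held 2 on the opposite strand. GC boxes were present in 30.5% of all 33469 stretches of the same length, and Agtr1a was the only other member with one. The Edn1 stretch held 1 hypoxia core (16.6% of all stretches) and 1 GATA site (10.3%), both on the opposite strand, and no GC box. AP-1 sites (6.34% of all stretches) and the E-box (5.59%) were found in 0 of the 8 members. The GC content was 69.2% for Ace and for Ece1 and 56.4% for Edn1, against a median of 51.2%. A match of letters is not evidence of binding.

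Agt (ENSRNOG00000018445), the gene of the angiotensin precursor, spans bases 57321640 to 57333433 of chromosome 19 (minus strand). Sham replicates 1 to 3 had an FPKM of 2.50, 6.32 and 15.7, and ischemia replicates 1 to 3 had 3.58, 0.301 and 0.364. Ischemia replicates 2 and 3 were below every sham sample, and ischemia replicate 1 lay among them. In edgeR the log2 fold change came to -2.58 ± 1.16 (SE), at an adjusted p of 0.178, and the exact permutation test on FPKM gave 0.2. Leaving out ischemia replicate 1 gave -4.69 (edgeR adjusted p 0.0284), in a fit where 7.98% of all tested genes were lower.

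Fat tissue is a known source of Agt, and adipocyte markers differed among these samples in much the same order. The summed FPKM of 6 adipocyte markers was 44.0, 99.6 and 420.9 in sham and 69.8, 24.3 and 8.45 in ischemia. Adipoq, the adiponectin gene, was at 12.7, 19.3 and 93.3 FPKM in sham, and at 11.8, 0.0441 and 0.0520 in ischemia. None of the 6 markers passed in edgeR, with a median log2 fold change of -3.66, and 3 of them did not overlap between the groups. Other marker lists had the same highest and lowest samples. Smooth muscle, fibroblast and Schwann cell sums were also highest in sham replicate 3, at 899.8, 1149 and 99.2 FPKM. They were lowest in ischemia replicates 2 and 3, at 64.1 and 97.9, 222.8 and 179.3, and 6.14 and 4.17. In bulk tissue, fewer cells of a type and less RNA per cell cannot be told apart. The part of fat or of these other cells in the Agt values was not tested.

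**Figure D2:**
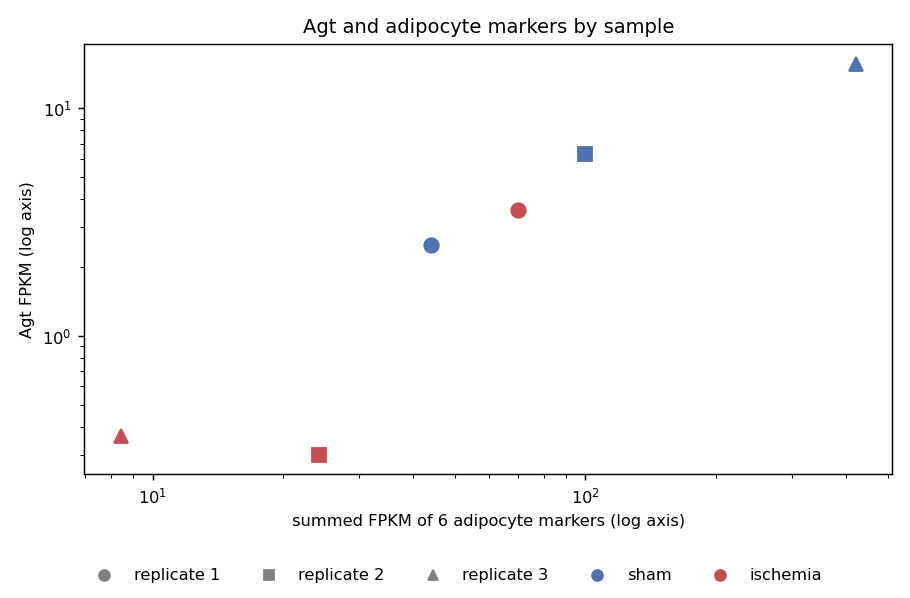
Agt FPKM (y axis, log scale) against the summed FPKM of 6 adipocyte markers (x axis, log scale), with 1 point per sample, sham in blue and ischemia in red. Sham replicate 3 was highest on both axes, at 15.7 and 420.9, and ischemia replicates 2 and 3 were lowest on both. Smooth muscle, fibroblast and Schwann cell marker sums, not drawn, had the same highest and lowest samples.

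Agtr1a (ENSRNOG00000018346), the main rodent type 1 receptor gene, spans bases 35907108 to 35958077 of chromosome 17 (minus strand). Sham replicates 1 to 3 had an FPKM of 2.54, 1.78 and 4.45, and ischemia replicates 1 to 3 had 3.03, 0.439 and 1.07. As for Agt, ischemia replicate 1 lay within the sham range while ischemia replicates 2 and 3 lay below it. The edgeR fit gave -0.98 ± 0.72 (log2 fold change, SE) with 0.372 as its adjusted p, and 0.3 was the exact permutation p.

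Agtr1b (ENSRNOG00000010640), the second type 1 receptor gene of rodents, on chromosome 2 from 105149020 to 105224295, had 0 counts in every library. That allows up to 3 counts per library, or between 0.0377 and 0.0438 CPM, for counting error only. Agtr1a and Agtr1b are close copies, so reads that fitted both could have been dropped or assigned to either. Agtr2 (ENSRNOG00000050006), the type 2 receptor gene, which is best known from fetal tissue, lies on chromosome X from 119390013 to 119393842. It had 12, 0 and 34 counts in sham and 15, 0 and 0 in ischemia, too few for the test. Agtr1a accounted for between 96.6% and 99.99% of the summed FPKM of the 3 receptors in each sample (exact permutation p 0.4 between the groups). Fibroblasts are a known site of Agtr1a, and the summed FPKM of 5 fibroblast markers was 343.8 to 1149 in sham and 179.3 to 438.6 in ischemia. None of them passed in edgeR, and their part in the Agtr1a values was not tested.

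Edn1 (ENSRNOG00000014361), the endothelin-1 gene, spans bases 22137324 to 22143324 of chromosome 17 (minus strand). Sham replicates 1 to 3 had an FPKM of 3.70, 1.36 and 2.65, and ischemia replicates 1 to 3 had 2.08, 5.41 and 2.12. Ischemia replicate 2 was the highest of all samples, and the other ischemia samples lay within the sham range. In edgeR the log2 fold change came to 0.24 ± 0.48 (SE), at an adjusted p of 0.752, and the exact permutation test on FPKM gave 0.7. Its sign turned without ischemia replicate 2 (-0.29) and without sham replicate 2 (-0.016). Relative to the endothelial markers the difference was 0.044 on the log2 scale (exact permutation p 1).

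Ednra (ENSRNOG00000012721), the gene of endothelin receptor A, spans bases 33928356 to 33991703 of chromosome 19 (plus strand). Its levels in sham replicates 1 to 3 were 17.2, 7.69 and 11.9, and those in ischemia replicates 1 to 3 were 7.25, 6.25 and 5.90 FPKM. The ischemia samples were tightly grouped just below sham replicate 2. The edgeR fit gave -0.98 ± 0.25 (log2 fold change, SE) with 0.0655 as its adjusted p, and 0.1 was the exact permutation p. When both atrial-rich sham samples (replicates 1 and 3) were left out it was -0.55 (edgeR adjusted p 0.417). In that fit the lone sham sample is assumed to vary like the ischemia samples, and 0 of 13964 genes passed.

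Ednra is known from smooth muscle and pericytes. Of 6 smooth muscle markers 1 was lower in edgeR (Smtn), with a median log2 fold change of -1.69, and of 6 pericyte markers 1 was lower (Abcc9), with a median of -0.31. Their summed FPKM was 165.3 to 899.8 and 61.4 to 73.6 in sham, and 64.1 to 248.1 and 51.7 to 64.6 in ischemia. Relative to the mean log2 FPKM of these 12 markers, Ednra was at 0.47, -0.66 and -1.29 in sham and at -0.90, 0.21 and -0.61 in ischemia. The groups then overlapped, and the difference was 0.057 on the log2 scale (exact permutation p 0.9). Ace against the same markers differed by 2.26 without overlap (exact permutation p 0.1). The marker mean itself was at 3.63, 3.60 and 4.86 in sham and at 3.76, 2.43 and 3.17 in ischemia. It differed by -0.91 with overlap (exact permutation p 0.3), and this shift enters both differences. The part of these cells in the Ednra and Ace values was not tested.

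Ednrb (ENSRNOG00000010997), the gene of endothelin receptor B, spans bases 88006977 to 88036354 of chromosome 15 (minus strand). The table places it inside the span of Mycbp2 on the same strand, so reads could have been lost or assigned to that gene. Sham replicates 1 to 3 had an FPKM of 4.64, 1.17 and 3.04, and ischemia replicates 1 to 3 had 2.78, 19.9 and 4.49. Ischemia replicate 2 stood far above all others, while ischemia replicates 1 and 3 lay within the sham range. In edgeR the log2 fold change came to 1.52 ± 0.79 (SE), at an adjusted p of 0.223, and the exact permutation test on FPKM gave 0.5, and it was 0.32 without ischemia replicate 2. Schwann cells are another known site of Ednrb, and their 5 markers had a summed FPKM of 25.3 to 99.2 in sham and 4.17 to 15.6 in ischemia. Of these, 1 was lower in edgeR, and their part in the Ednrb values was not tested.

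**Figure D3:**
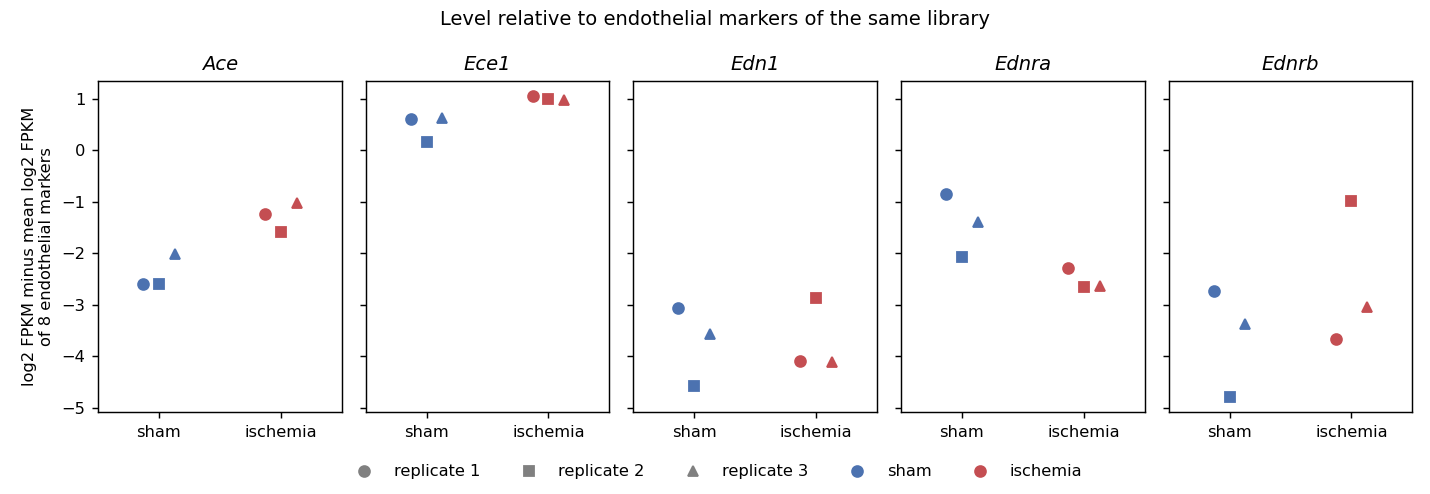
Log2 FPKM of 5 genes minus the mean log2 FPKM of 8 endothelial markers of the same library (y axis), for each sham (blue) and ischemia (red) sample. Ace and Ece1 were higher and Ednra lower in every ischemia sample on this scale, by 1.12, 0.55 and -1.09, while Edn1 and Ednrb overlapped.

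The ratio of both endothelin receptors within a library does not depend on how it was scaled. The ratio of Ednrb to Ednra was 0.270, 0.152 and 0.255 in sham, against 0.383, 3.18 and 0.760 in ischemia. Sham and ischemia samples did not overlap, with a difference of 2.15 on the log2 scale (exact permutation p 0.1), which was 1.30 without ischemia replicate 2. Receptor A transcripts outnumbered receptor B transcripts per length in every sample except ischemia replicate 2. This ratio and the share of Agtr1a belong to a family of 3 such comparisons, none of which could pass a threshold of 0.05 with 3 samples a group.

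**Figure D4:**
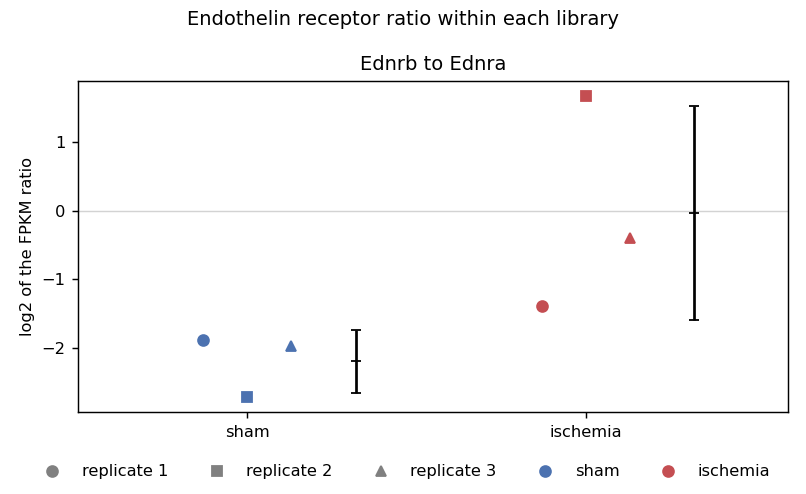
Log2 ratio of FPKM (y axis) of Ednrb to Ednra in each sham (blue) and ischemia (red) sample, with the mean ± SD of 3 samples in black. The ratio was higher in every ischemia sample than in any sham sample, by 2.15 on average.

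The wider pathways were followed through 76 further genes in 6 lists, of which 59 were tested. Of these, 6 were higher and 2 lower in edgeR at an adjusted p under 0.05, or 13.6%, against 6.71% of all tested genes in either direction. Leaving out any single sham sample, or ischemia replicate 3, left 0 of the 59 past the edgeR threshold, as it did for all 13964 genes. Without ischemia replicate 1, 13 were higher and 6 lower, in a fit where 10.7% of all tested genes were higher and 7.98% lower. Without ischemia replicate 2, 3 were higher and 0 lower, against 3.31% and 0.781% of all tested genes. Cathepsin G (Ctsg), which can release angiotensin peptides, had 0 counts in every library, and so had Edn3, which encodes another endothelin. Edn2 had 11 counts in sham replicate 2 and 0 elsewhere. Ctsd, a lysosomal protease able to cut angiotensinogen and the most abundant of these genes, was at 201.4 to 267.8 FPKM in sham and 224.6 to 299.1 in ischemia. Its log2 fold change was 0.044, with an edgeR adjusted p of 0.902.

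Of 15 tested further renin-angiotensin genes, 2 were higher and 1 was lower. Anpep, the aminopeptidase that trims angiotensin III, was at 5.62, 4.47 and 10.3 FPKM in sham and 18.4, 45.5 and 18.9 in ischemia (log2 fold change 1.93 ± 0.42 SE, edgeR adjusted p 0.0494). Anpep is also known from myeloid cells, whose markers were highest in ischemia replicate 2 as well, and their part in its values was not tested. Thop1, which encodes thimet oligopeptidase and can cut angiotensin I, was at 8.09, 9.56 and 8.39 FPKM in sham and 20.8, 18.3 and 19.8 in ischemia (1.07 ± 0.22 SE, edgeR adjusted p 0.0444). Enpep, the aminopeptidase that removes the first residue of angiotensin II, was lower. Its FPKM was 13.7, 9.34 and 12.1 in sham and 6.97, 8.02 and 6.79 in ischemia (-0.77 ± 0.15 SE, edgeR adjusted p 0.0440). The median log2 fold change of the 15 genes was 0.044.

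**Figure D5:**
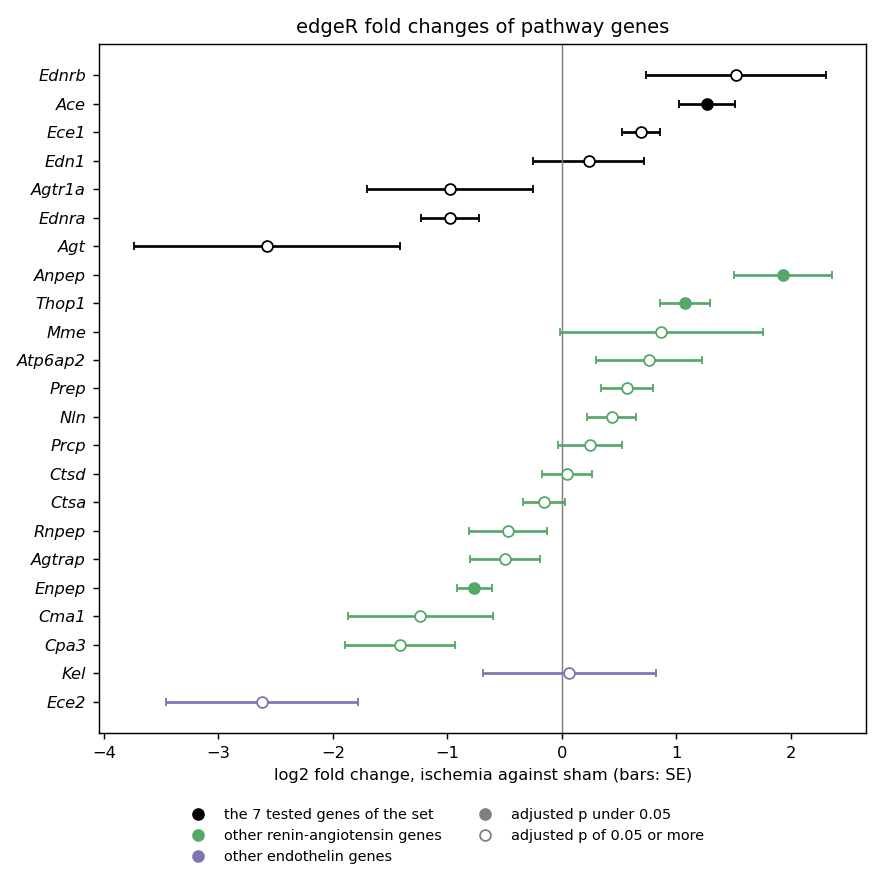
Log2 fold change of ischemia against sham (x axis, bars are SE) in edgeR for the 7 tested members (black), other renin-angiotensin genes (green) and 2 other endothelin genes (violet). Filled points (Ace, Anpep, Thop1 and Enpep) had an adjusted p under 0.05.

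Of the other endothelin genes, Ece2, a further converting enzyme, was the most abundant on average over all samples. It was at 1.63, 0.862 and 2.60 FPKM in sham and 0.522, 0.0528 and 0.252 in ischemia (log2 fold change -2.62 ± 0.84 SE, edgeR adjusted p 0.0968). Kel, the other one tested, had a log2 fold change of 0.064 with an edgeR adjusted p of 0.960. Ace also inactivates bradykinin. Of 9 kallikrein-kinin genes 2 were tested and 0 passed in edgeR. Bdkrb2, the B2 bradykinin receptor, was at 0.975, 0.369 and 1.82 FPKM in sham and 2.91, 2.17 and 1.87 in ischemia (1.11 ± 0.51 SE, edgeR adjusted p 0.182).

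On the aldosterone side, 1 of 4 tested genes was higher, namely Sgk1, a kinase induced by corticosteroids. It was at 9.09, 7.54 and 10.2 FPKM in sham and 14.3, 28.2 and 28.9 in ischemia (log2 fold change 1.33 ± 0.29 SE, edgeR adjusted p 0.0488). Nr3c2, the mineralocorticoid receptor, was at 3.72, 2.34 and 2.60 FPKM in sham and 0.843, 1.11 and 1.52 in ischemia, without overlap and without passing (-1.38 ± 0.34 SE, edgeR adjusted p 0.0590). Scnn1a of the same list went the other way, also without overlap and without passing (1.43 ± 0.34 SE, edgeR adjusted p 0.0561). It was at 0.589, 0.291 and 0.434 FPKM in sham and 1.44, 1.31 and 0.959 in ischemia.

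Both receptor families couple to Gq and G12 proteins. Of 20 tested genes of this coupling and of receptor desensitisation, 1 was higher and 1 was lower. Grk5, a kinase that desensitises such receptors, was at 9.18, 8.88 and 9.22 FPKM in sham and 23.8, 26.2 and 23.9 in ischemia (log2 fold change 1.34 ± 0.16 SE, edgeR adjusted p 0.0272), a step far larger than the spread within either group. Plcb4, a phospholipase C activated by Gq, was at 10.99, 5.93 and 8.31 FPKM in sham and 4.10, 3.85 and 4.02 in ischemia (-1.14 ± 0.21 SE, edgeR adjusted p 0.0382). Rgs5, a pericyte gene that damps Gq signalling and the most abundant of the list on average over all samples, was at 103.0, 84.8 and 83.0 FPKM in sham and 54.9, 30.1 and 34.0 in ischemia (-1.27 ± 0.29 SE, edgeR adjusted p 0.0510).

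Of 16 genes known to respond to angiotensin II or endothelin-1, 2 were higher in edgeR, against 5.18% of all tested genes. The median log2 fold change was 1.58 over the list and -0.0015 over all tested genes. Spp1, the osteopontin gene, was at 1.92, 2.26 and 15.3 FPKM in sham and 450.7, 967.8 and 317.2 in ischemia (log2 fold change 6.43 ± 1.05 SE, edgeR adjusted p 0.0339). Spp1 is also known from macrophages and other cells, and all 9 tested neutrophil and monocyte markers were higher in the same samples. The part of those cells in the values of Spp1 and of the rest of the list was not tested. Nppa, the atrial natriuretic peptide gene and the most abundant of the list, is itself one of the 5 atrial markers, with 33225, 67.7 and 25111 FPKM in sham and 7431, 2051 and 1251 in ischemia (-2.42 ± 1.66 SE, edgeR adjusted p 0.337).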

How the data were processed

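Myocardial RNA of 3 sham and 3 ischemia rat samples (30 min) was analysed. The deposited table held raw counts per gene, whole numbers that were not normalised. The authors also deposited FPKM, with genes without reads set to 0.0001. The submitters' processing notes name STAR and HTSeq, and versions and the genome build were not given in the sources used here. Every value column was assigned to its sample by the sample description.

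Counts were tested with the edgeR quasi-likelihood test after TMM scaling, ischemia against sham without covariates, over the 13964 genes that averaged 0.5 FPKM or more. Benjamini-Hochberg adjustment of the p-values ran over those genes (threshold 0.05), and the SE was derived from the F statistic. Exact permutation tests (two-sided) served for ratios and single FPKM values. The members and lists were chosen with earlier results of these data known. By rule, the text names all members, list genes past the threshold, the most abundant gene of each pathway list (mean over all samples), and the 3 genes nearest to a member past the threshold. Nr3c2, Scnn1a, Kel, Adipoq, Cldn5, Mycbp2, Ctsg, Edn2 and Edn3 were named after their values were seen. Some genes that the lists hold are not reported here by name. Alternatives were DESeq2, limma on log2(FPKM + 0.1) and log2(FPKM + 1), relative log expression or total count scaling, no filter or only genes averaging 5 FPKM or more, summed rows of repeated symbols, a replicate block and each sample left out. Leaving out both atrial-rich sham samples and setting members against marker means were chosen after seeing the data. Total counts of 68529126 to 79591989 make 3 counts 0.0377 to 0.0438 CPM. The test was tested on simulated data. Tools were Python 3.11.15 and, in R 4.3.3, DESeq2 1.42.0, edgeR 4.0.16 and limma 3.58.1.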

Additional observations from a re-analysis of the deposited data

How the results depend on the processing

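Of the 9 members, 7 were tested, and Ace, Ece1, Ednra, Ednrb, Agt and Agtr1a kept their direction under every alternative in which they were tested. Ace kept its call in 10 of 16 alternatives. It lost it with the replicate block (1.26, edgeR adjusted p 0.104), without both atrial-rich sham samples (1.24, adjusted p 0.394 in edgeR) and in 4 of the 6 fits that left out a sample. Members higher numbered 2 with DESeq2 and with a mean FPKM of at least 5, and 0 with the replicate block and without both atrial-rich sham samples. Members lower numbered 2 with DESeq2. DESeq2 added Ece1 (0.66, adjusted p 4.24e-08), Ednra (-1.001, adjusted p 0.00458) and Agt (-2.61, adjusted p 0.0441), and the higher filter added Ece1 (0.64). Further pathway genes higher numbered 16 with DESeq2, 3 without a filter, and 0 with the replicate block and without both atrial-rich sham samples. Those lower numbered 10 with DESeq2, 1 with limma at either pseudocount, 1 without a filter, 4 with the higher filter, and 0 with total counts only, with the replicate block and without both atrial-rich sham samples. With 0.1 added to FPKM the difference in the Agtr1a share reversed to -7.92 percentage points from 1.14.

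With each sample left out in turn, the log2 fold change ranged from 1.09 to 1.41 for Ace, from 0.66 to 0.71 for Ece1, from -1.16 to -0.71 for Ednra, from 0.32 to 1.97 for Ednrb, from -4.69 to -1.84 for Agt, from -1.98 to -0.53 for Agtr1a and from -0.29 to 0.55 for Edn1. Edn1 reversed to -0.016 without sham replicate 2 and to -0.29 without ischemia replicate 2. Members higher ranged from 0 to 1 and members lower from 0 to 1, and further pathway genes higher from 0 to 13 and lower from 0 to 6. The difference in log2 Ednrb to Ednra ranged from 1.30 to 2.83 and that of the Agtr1a share from 0.32 to 2.03 percentage points. In 4 of these fits, with the replicate block and without both atrial-rich sham samples, 0 genes of 13964 passed in edgeR, while between 1707 and 3809 had an unadjusted p under 0.05. The cause was not tested.

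Same-numbered samples did not deviate together, with correlations of deviations from -0.196 to -0.056 and 0 of 3 sham samples closest to their own number, so the replicate block rests on a shared number only. In the block the exact paired test of the ratios cannot go below 0.25.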
